A study of Mus musculus with 4 samples.

Results

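Alveolospheres are lung organoids grown from lung fibroblasts and surfactant-producing alveolar type 2 (AT2) cells. The cells described here are the myofibroblast-like cells that the authors placed outside their cluster 4, chosen by the authors' cell class (Myofib-like) and cluster number. All 1435 of them lay in the authors' cluster 15, out of 4169 myofibroblast-like cells and 45936 cells in the series. The remaining 2734 myofibroblast-like cells formed cluster 4. The other mesenchymal classes held 31947 cells.

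Myofibroblasts are fibroblasts that contract and lay down matrix, and in the lung they are known from alveolar septation, where they depend on PDGF signals, and from scarring. The proteoglycan NG2, encoded by Cspg4, is better known from pericytes, the mural cells of capillaries, and type X collagen (Col10a1) from hypertrophic cartilage, while periostin (Postn) is secreted by matrix-depositing fibroblasts. YAP and TAZ are paralogous transcriptional co-activators that act with TEAD factors downstream of the Hippo kinases, and are active in stretched or spread fibroblasts.

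The knockdown group paired wildtype AT2 cells with lung fibroblasts carrying a knockdown of YAP and TAZ (genes Yap1 and Wwtr1) specific to PDGFRα-positive cells, and the control group was labelled wildtype. AT2 cells were LysoTracker-positive and fibroblasts PDGFRα-positive. Each group had 2 libraries. Both groups grew in MTEC/Plus medium with 3 µg/ml doxycycline dissolved in DMSO, added on day 7 and kept on until the spheres were collected at day 14, so the drug did not differ between them. The labels give 1 batch for all libraries and call the libraries of a group biological replicates, but name no separate animals or cultures. Any p-value below therefore measures how these libraries vary, and that variation may be technical. RNA and open chromatin were read from the same cells with a 10x Genomics multiome kit. Values are unique molecular identifier (UMI) counts summed over the cells of a library and scaled to a common library total (CPM).

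Cluster 15 held 99 and 39 cells in knockdown libraries 1 and 2, against 703 and 594 cells in control libraries 1 and 2. Its summed depth was 555267 and 259456 UMIs in the knockdown libraries, against 3506200 and 3085043 UMIs in the controls, so 1 UMI was worth far more CPM in the knockdown libraries. Knockdown library 2 fell under the minimum of 50 cells set for a test, so no gene-wise test between the groups was run, and each library is given with its own value. Without a test, no p-value is given for a gene. Knockdown cells held a median of 4908 and 6074 UMIs each, against 4258 and 4507 UMIs for control cells. The medians for cluster 4 were 4236 and 5390 UMIs in the knockdown, against 3274 and 3599 UMIs in the controls. Cluster 15 was deeper than cluster 4 in 4 of 4 libraries, by 812 UMIs on average, and had 3.04 percentage points more mitochondrial UMIs (exact paired permutation test over libraries, two-sided, p = 0.125 for each, the smallest p that 4 libraries allow). In the chromatin data, its enrichment of fragments at transcription start sites was lower than that of cluster 4 in 4 of 4 libraries, with a mean difference of -0.652 (the same exact test, p = 0.125), over 1383 cells with chromatin values. Of 44852 distinct cell barcodes 1073 occurred in more than 1 library, and 62 cluster 15 cells carried such a barcode.

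Cluster 15 carried the 3 markers that set it apart within the mesenchyme. Cspg4 (ENSMUSG00000032911, GRCm38 chromosome 9, 56865033 to 56899870, plus strand) read 61.2 and 112 CPM in the knockdown libraries, against 188 and 195 CPM in the controls. In cluster 4 the same gene read 27.5 and 22.4 CPM in the knockdown and 42.7 and 35.8 CPM in the controls. Each of the 4 libraries was higher in cluster 15 than in cluster 4. Col10a1 (ENSMUSG00000039462, chromosome 10, 34389981 to 34397085, plus strand) read 43.2 and 26.98 CPM in knockdown and 39.9 and 88.2 CPM in control cells of cluster 15. Its range was 1.87 to 3.44 CPM in cluster 4 and 1.77 to 3.34 CPM in the other mesenchymal classes. Postn (ENSMUSG00000027750, chromosome 3, 54361109 to 54391037, plus strand) followed the other markers in the controls but not in the knockdown. It read 34.2 and 42.4 CPM in knockdown cells of cluster 15, against 118 and 134 CPM in control cells. Cluster 4 read 40.9 and 28.4 CPM of Postn in the knockdown and 39.3 and 52.5 CPM in the controls, so the knockdown libraries of the 2 clusters overlapped. Over all libraries pooled, cluster 15 ranked first of the 19 mesenchymal clusters for each of the 3 genes, although most of its cells were control cells. Within libraries there were exceptions in the knockdown: in library 2 cluster 16 read 29.6 CPM of Col10a1 and 63.3 CPM of Postn, and in library 1 cluster 4 had more Postn, each above cluster 15. The authors' clusters may rest on these same expression values, so the comparison describes the cells and is not a test.

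**Figure D1:**
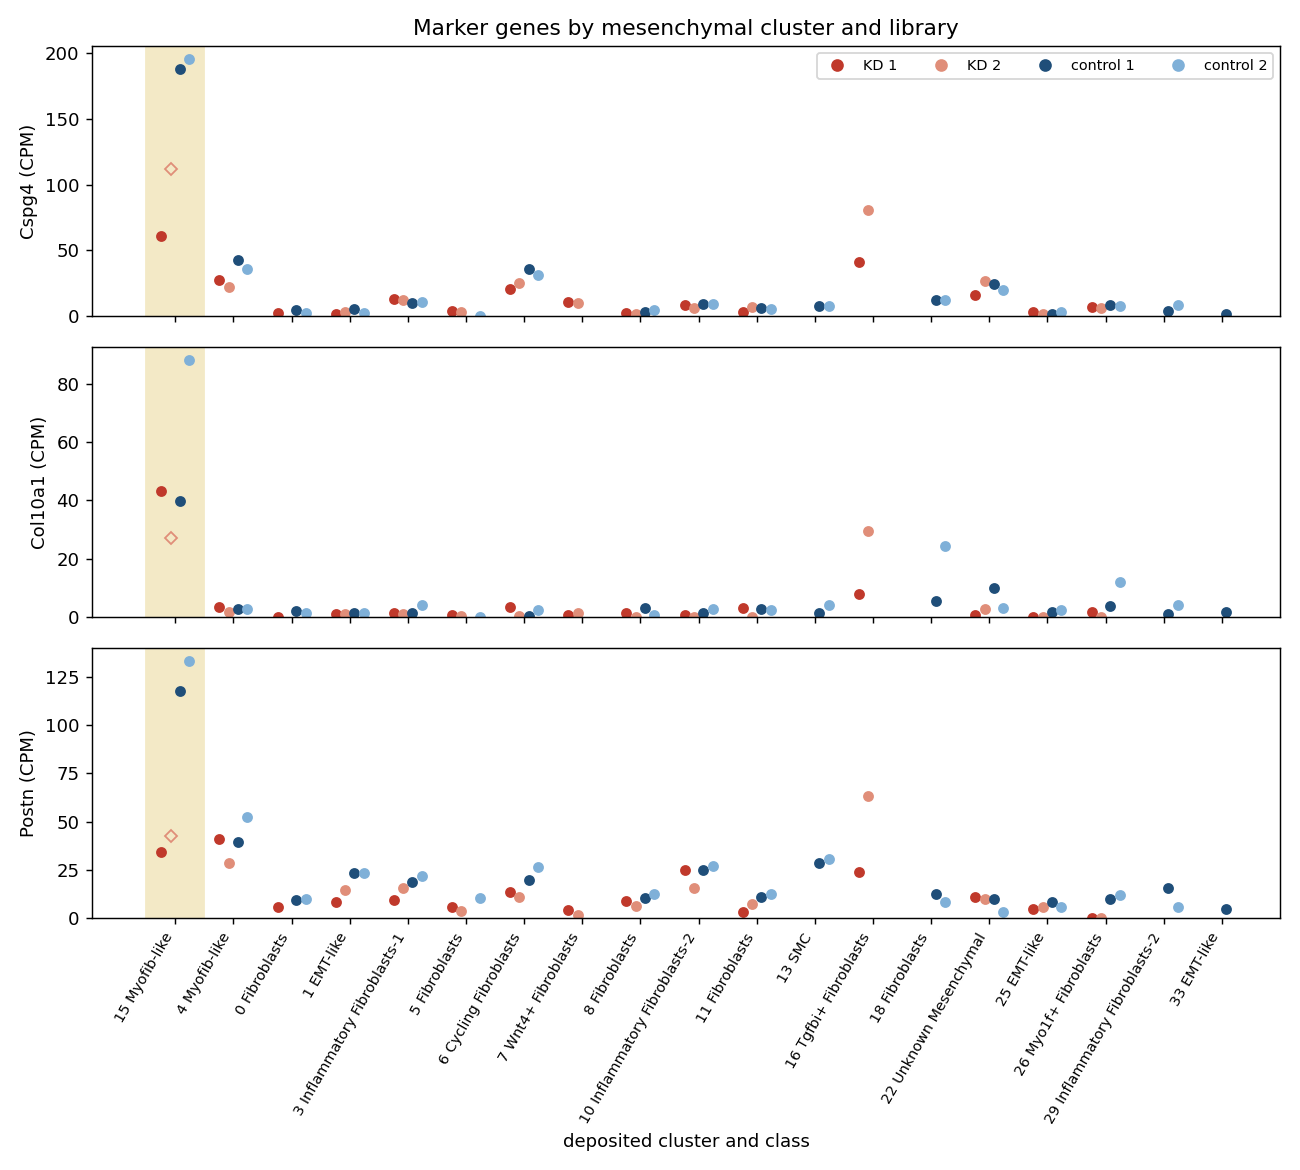
Levels of Cspg4, Col10a1 and Postn (CPM, linear axis) in each mesenchymal cluster, 1 point per library with at least 50 cells; the open diamond in the shaded column is knockdown library 2 of cluster 15, with 39 cells. In the controls cluster 15 stands above every other cluster shown for all 3 genes, while in the knockdown its Postn level lies among those of clusters 4 and 16.

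Against the other mesenchymal classes, 113 of 8838 genes with a mean of at least 10 CPM (1.28%) were at least 2-fold higher in cluster 15 in all 4 libraries, and 108 (1.22%) were at least 2-fold lower. With TMM scaling of the sums the split was 87 higher and 153 lower. The genes are described by their known roles, secreted signals first. Bmp2, a bone morphogenetic protein, read 175, 189, 57.04 and 52.8 CPM in knockdown 1, knockdown 2, control 1 and control 2, against 8.06, 9.43, 3.17 and 3.399 CPM in the other classes. Bmp7, a second ligand of that family, read 162, 108, 42.8 and 43.4 CPM in the same order, against 7.66, 8.98, 3.59 and 4.296 CPM. For both, the highest value of the pooled other classes lay below the lowest value in cluster 15. A single cluster came closer for Bmp2. Cluster 16, the authors' Tgfbi+ class, read 36.5 and 51.7 CPM in the knockdown libraries, near the control cells of cluster 15. Apod, a lipid-binding apolipoprotein, had the largest ratio (log2 4.47 on means) with a wide spread between libraries, at 654, 219.7, 106 and 43.4 CPM in cluster 15, against 8.72 to 13.8 CPM elsewhere. Pdgfc, a ligand of PDGFRα, read 30.6, 42.4, 75.6 and 80.7 CPM, against 4.57 to 5.68 CPM in the other classes.

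Of 9 cartilage and bone genes tested against the other classes, 2 were 2-fold higher (Col10a1, Ibsp), 1 was lower (Alpl) and 6 were neither. Over all genes, 1.28% were higher and 1.22% lower. Ibsp, integrin-binding sialoprotein of mineralising tissue, read 43.2, 11.6, 46.5 and 37.9 CPM in the 4 libraries of cluster 15, against 0.816 to 1.76 CPM in the other classes. The 11.6 CPM of knockdown library 2 is worth 3 counts. Single clusters came closer for Ibsp: control cells of cluster 13 read 7.84 and 10.9 CPM, and knockdown cells of cluster 16 read 8.87 and 5.996 CPM. Dmp1, dentin matrix protein, read 28.8, 73.2, 98.4 and 109 CPM, against 8.34 to 17.7 CPM, with knockdown library 1 close to the range outside the cluster, and did not meet the 2-fold rule in every library. Tgfbi (chromosome 13, 56609523 to 56639562, plus strand), a secreted matrix protein induced by TGF-beta, read 1686, 1534, 329 and 429.8 CPM, against 148, 95.9, 65.3 and 82.8 CPM. Both knockdown libraries were well above the controls inside the cluster, and each was above the pooled other classes. Single clusters reached the control level: Tgfbi read 564 and 482 CPM in knockdown cells of cluster 16, the authors' Tgfbi+ class, and 366 and 429 CPM in control cells of cluster 13, their smooth muscle class. Cluster 16 ranked first for Tgfbi over pooled libraries, with cluster 15 next. Col7a1, the collagen of anchoring fibrils, read 90.05, 77.1, 172 and 168 CPM, against 14.8 to 17.6 CPM, and Tnc (tenascin C, a matrix protein of remodelling tissue) read 4798, 5558, 4896 and 4216 CPM, against 1207 to 1596 CPM. Cluster 16 also had high Tnc, at 3557 and 4466 CPM in the knockdown libraries, where it held more than 50 cells, against a lowest value of 4216 CPM over the 4 libraries of cluster 15.

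Among membrane proteins and enzymes, Piezo2, a mechanically gated ion channel, read 1331, 1299, 2024 and 1542 CPM in cluster 15, against 416 to 876 CPM in cluster 4 and 213 to 314 CPM in the other classes. The cell adhesion molecule gene Cadm1 read 97.3, 104, 157 and 144 CPM, against 17.6, 13.8, 7.496 and 6.53 CPM, and is also an epithelial gene, at 327 to 353 CPM in AT2 cells of these libraries. Fut9, a fucosyltransferase, read 63.03, 84.8, 51.6 and 54.5 CPM, against 3.32 to 7.88 CPM, with little spread between libraries. The cadherin gene Cdh6 was more variable, with 7.204, 46.3, 78.4 and 61.9 CPM, against 2.53 to 5.51 CPM, and knockdown library 1 close to the other classes. Nes (nestin), an intermediate filament gene of progenitor and mural cells, read 82.8, 116, 111 and 108 CPM, against 15.3 to 20.4 CPM. The other genes named by the same rule were Zfp804a, Cadps, Prss12 and Adamts16, with log2 ratios of 4.31, 4.01, 3.50 and 3.35.

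**Figure D2:**
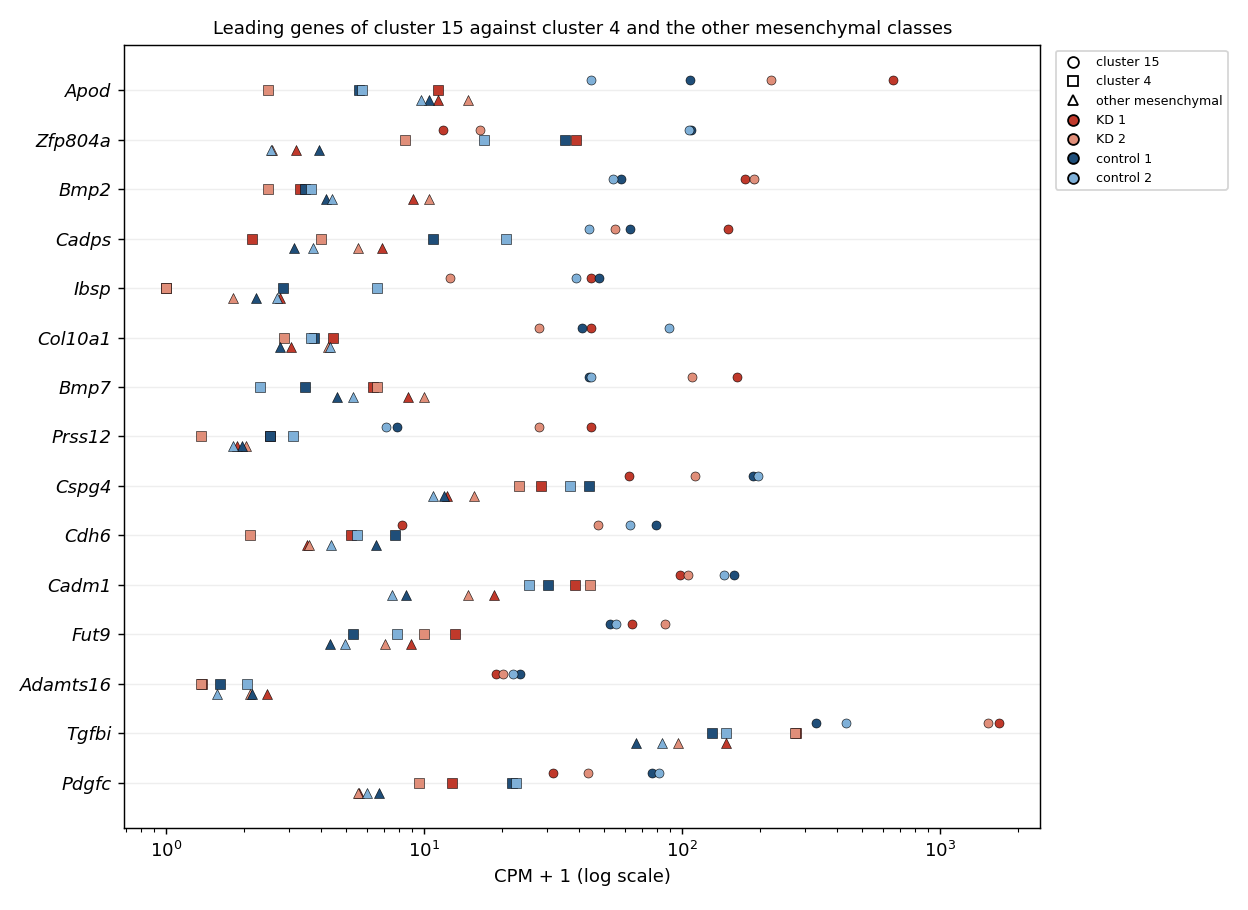
The 15 genes with the largest ratio of cluster 15 over the other mesenchymal classes, as CPM + 1 on a log axis; circles are cluster 15, squares cluster 4 and triangles the other classes, 1 symbol per library. Circles lie to the right of squares and triangles of the same library, except for Zfp804a, where cluster 4 of knockdown library 1 (37.9 CPM) lies right of cluster 15 of that library.

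Cluster 15 and cluster 4 share a class name but differed in many genes. Of 8845 genes, 157 (1.78%) were at least 2-fold higher in cluster 15 in all 4 libraries and 90 (1.02%) at least 2-fold lower. Nrg1, an ErbB receptor ligand of the EGF family, read 1099, 798, 271 and 279 CPM in cluster 15, against 22.5 to 46.3 CPM in cluster 4. Dkk2, a secreted Wnt modulator, read 391, 339, 188 and 202 CPM, against 10.8 to 21.5 CPM, and Robo2, a receptor for Slit guidance proteins, read 137, 189, 269.5 and 243 CPM, against 5.23 to 13.2 CPM. For these 3 genes no library of cluster 4 came near the lowest library of cluster 15. For Nrg1 cluster 4 ranked last of the 19 mesenchymal clusters, and Nrg1 did not meet the 2-fold rule against the other classes. Control cells of cluster 29 read 270.1 and 328 CPM of Nrg1, overlapping control cells of cluster 15. Il1rl1, the receptor of interleukin 33, read 270.1, 173, 41.6 and 48.6 CPM, against 2.295 to 4.77 CPM, and Adamdec1, a metalloproteinase-related gene, 306, 177, 47.6 and 48.3 CPM, against 0.374 to 5.74 CPM.

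Genes low in cluster 15 and high in cluster 4 were of other kinds. Sema3d, a semaphorin guidance signal, read 25.2, 34.7, 45.6 and 47.00 CPM in cluster 15, against 219.6, 206, 316 and 316 CPM in cluster 4. Mamdc2, a secreted matrix protein gene, read 10.8, 19.3, 16.5 and 17.5 CPM, against 156, 124, 207 and 208 CPM, and the potassium channel gene Kcnd3 0, 3.85, 7.42 and 3.89 CPM, against 38.6, 48.2, 98.5 and 92.7 CPM. Mmp13, a collagenase, read 12.6, 3.85, 12.3 and 21.4 CPM, against 17.6, 32.5, 182 and 182 CPM, with the smallest difference in knockdown library 1. Chodl, Fgl2, Gabrg3, Zfp385b, Slfn5 and Ahsg completed the 10 genes lowest against cluster 4. Where a knockdown library of cluster 15 held no UMI of a gene, 3 counts would have been 5.40 CPM in library 1 and 11.6 CPM in library 2, the limit that a count of 0 allows.

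Lists of genes gave the label a mixed reading. Of 16 contractile genes tested against the other classes, 0 were 2-fold higher and 0 lower in all libraries, beside 1.28% and 1.22% of all genes. Their median log2 ratio was 0.27 beside 0.07 over all genes. Acta2, smooth muscle actin, read 160.3, 463, 297 and 471 CPM in cluster 15, against 212, 354, 306 and 463 CPM in the other classes, and Tagln, transgelin, 115, 189, 227 and 369 CPM, against 144, 245, 199 and 274 CPM. The ranges overlapped for both, so contractile genes did not separate cluster 15 from the rest of this mesenchyme. They did stand above cluster 4, where Acta2 read 79.6, 96.04, 133 and 141 CPM. Acta2, Actg2 and Myocd were 2-fold higher in all libraries, 3 of 15 genes tested, beside 1.78% of all genes. The median log2 ratio of the list was 1.05 beside 0.03 over all genes. Of 12 alveolar and ductal myofibroblast genes tested, 0 were 2-fold higher than in the other classes, beside 1.28% of all genes. So short a list can hold 0 at that share, and its median log2 ratio was 0.34 beside 0.07. Against cluster 4, 2 of 11 were higher (Actg2, Acta2), with a median of 1.31 beside 0.03. Given this mixed reading, the cells are called cluster 15 below.

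Collagens were described as a list as well. Of 24 tested, 5 were 2-fold higher than in the other classes (Col5a3, Col6a2, Col6a3, Col7a1, Col10a1) and 1 lower (Col23a1), beside 1.28% and 1.22% of all genes, with a median log2 ratio of 0.76 beside 0.07. Against cluster 4, 8 were higher and 1 lower, beside 1.78% and 1.02% of all genes, with a median of 0.57 beside 0.03. Of 11 Wnt/beta-catenin target genes tested, 4 were 2-fold higher than in the other classes and 0 lower, beside 1.28% and 1.22% of all genes, with a median log2 ratio of 1.51 beside 0.07. Lef1, the transcription factor of that pathway, read 77.4, 42.4, 59.6 and 52.8 CPM, against 8.05 to 14.8 CPM, and the others were Nkd2, Apcdd1 and Dkk2. In the knockdown libraries cluster 16 read 54.8 and 55.1 CPM of Lef1, overlapping cluster 15, and 210.1 and 303 CPM of Dkk2, and it ranked above cluster 15 for Dkk2 over pooled libraries. Axin2, the commonest reporter of the pathway, was not among the 4 higher genes, with 5.403, 11.6, 11.4 and 11.02 CPM, against 4.504 to 7.48 CPM. Against cluster 4, 3 of 12 target genes were higher (Lef1, Ccnd1, Dkk2) and 0 lower, beside 1.78% and 1.02% of all genes. The median log2 ratio there was 0.88 beside 0.03. Nkd2 (log2 -0.04) and Apcdd1 (log2 1.70) did not meet the 2-fold rule in every library against cluster 4.

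Markers of pericytes and cartilage were checked because Cspg4 and Col10a1 are known from them. Of 9 defining pericyte markers, Higd1b was at 0 in cluster 15, Rgs5 read 0, 0, 0.57 and 0.324 CPM, and only Cspg4 was 2-fold above the other classes in every library. Trpc6, on the same list, had log2 ratios of 3.02 over the other classes and 2.95 over cluster 4, without meeting the rule in every library. The 6 markers tested against the other classes had a median log2 ratio of 0.51 beside 0.07 over all genes. The summed level of the 9 was 553, 617, 577 and 589 CPM, against 375, 419, 348 and 374 CPM in the other classes. Of 10 chondrocyte markers, Matn1 and Cytl1 were at 0 in cluster 15, but also in cluster 4 and the other classes. The sum of the 10 was 88.2, 108, 47.3 and 41.5 CPM in cluster 15, against 68.5, 69.0, 79.7 and 69.8 CPM in the other classes. Alpl, alkaline phosphatase of mineralising cells, was lower in cluster 15, at 0, 0, 4.85 and 1.94 CPM, against 29.96 to 39.5 CPM. Runx2, the master factor of bone cells, read 166, 158, 169 and 168 CPM, against 98.5 to 123 CPM, with every library higher inside the cluster by less than 2-fold.

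A second annotation that the authors deposited for each cell split cluster 15, and the split differed sharply between knockdown and control. It gave 1043 of the cells the name Myofib-like, 233 Tgfbi+ Fibroblasts, 92 Unknown Mesenchymal and 67 one of 8 other names. The Tgfbi+ name was held by 63 of 99 and 24 of 39 knockdown cells (63.6%, exact binomial 95% interval 53.4 to 73.1%, and 61.5%, 44.6 to 76.6%). In the controls it was held by 79 of 703 and 67 of 594 cells (11.2%, 9.0 to 13.8%, and 11.3%, 8.85 to 14.1%). The Myofib-like name showed the opposite, with 24.2% and 17.9% of knockdown cells, against 77.0% and 79.3% of control cells. The libraries of a group lay close to each other and far from those of the other group. Intervals here cover counting error only.

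**Figure D3:**
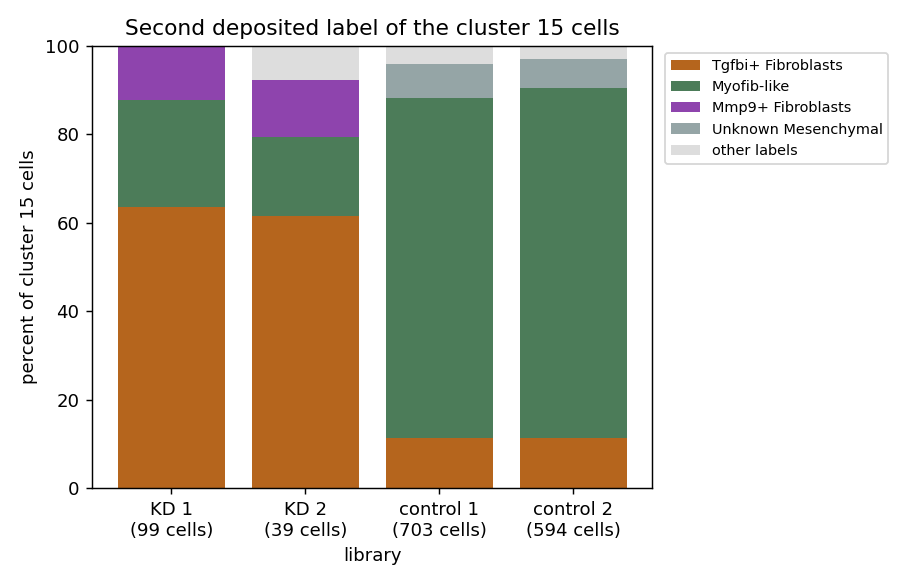
Share of cluster 15 cells (percent of the cells of each library) by the second name the authors deposited. Tgfbi+ Fibroblasts make up 63.6% and 61.5% in the knockdown libraries, against 11.2% and 11.3% in the controls.

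Cluster 4 showed no such split between the Tgfbi+ and Myofib-like names. None of its cells was named Tgfbi+ Fibroblasts, and 90.0% and 90.9% in the knockdown, against 89.4% and 90.1% in the controls, were named Myofib-like. Cells named Mmp9+ Fibroblasts made up 12.1% and 12.8% of cluster 15 in the knockdown, against 0.142% and 0% in the controls (1 of 703 and 0 of 594 cells, the second with an exact upper limit of 0.619%). This was not particular to cluster 15. The Mmp9+ name made up 4.82% and 2.96% of cluster 4 in the knockdown, against 0.117% and 0.218% in the controls. In cluster 22 it made up 10.8% and 6.58%, against 0% and 0%. In cluster 16 it made up 23.3% and 38.6% in the knockdown. The cells named Unknown Mesenchymal were all from the controls, 54 and 38 cells, and were deep, with medians of 8258 and 9887.5 UMIs. Across the series, 1900 cells were named Tgfbi+ Fibroblasts. In the knockdown libraries 547 and 164 of them lay in cluster 16 (the authors' Tgfbi+ class), against 2 and 27 in the controls, while 35 and 3 lay in cluster 13 (their smooth muscle class) in the knockdown, against 340 and 367 in the controls.

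The 2 named portions of cluster 15 had different programmes, seen best in the controls, where both were well represented. Cells named Myofib-like carried the cluster's markers. Cspg4 read 2.83 and 9.16 CPM in the control cells named Tgfbi+ Fibroblasts, against 220.0 and 226 CPM in those named Myofib-like. Col10a1 read 2.83 and 3.05 CPM in the first, against 50.9 and 119 CPM. Zfp804a and Cdh6 had no UMI in any of the 233 Tgfbi+-named cells, which allows up to 8.48 and 9.16 CPM per control library, whereas the Myofib-like-named cells read 132 and 127 CPM of Zfp804a. They read 95.96 and 63.6 CPM of Cdh6. Nebl, a Z-disc protein gene that AT2 cells also express, read 0 and 9.16 CPM, against 80.6 and 61.8 CPM, and Col8a1, a short-chain collagen, 28.3 and 18.3 CPM, against 264 and 292 CPM. Pdgfc read 19.8 and 12.2 CPM, against 86.1 and 93.2 CPM.

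The secreted signals were on the other side. Nrg1 read 1634 and 1657 CPM in Tgfbi+-named control cells, against 118 and 115 CPM in Myofib-like-named ones. Bmp2 read 308 and 320.5 CPM, against 33.2 and 24.7 CPM, Bmp7 178 and 165 CPM, against 32.8 and 34.4 CPM, and Bmp3, a family member that opposes BMP signals, 147 and 109.9 CPM, against 3.55 and 3.97 CPM. Apod, Adamdec1 and Il1rl1 followed them, with log2 ratios of 6.01, 5.60 and 4.07. Chemokine genes were higher there as well. Cxcl2 read 130.1 and 168 CPM in Tgfbi+-named cells, against 7.503 and 2.21 CPM in Myofib-like-named cells, and Cxcl10 93.3 and 101 CPM, against 1.97 and 9.72 CPM. Ccl11 read 201 and 308 CPM, against 13.4 and 22.97 CPM. Tgfbi itself read 1750.1 and 1923 CPM, against 188 and 281 CPM.

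Some leading genes were common to both portions. Piezo2 read 1699 and 1474 CPM in Tgfbi+-named control cells, against 2219 and 1639.8 CPM in Myofib-like-named ones, Nes 113 and 76.3 CPM, against 114 and 113 CPM, and Col7a1 136 and 180.1 CPM, against 194 and 176 CPM. Dkk2 read 277 and 339 CPM, against 195 and 208 CPM, and Fut9 90.5 and 79.4 CPM, against 54.5 and 59.6 CPM. Across 8752 and 8789 genes the portions correlated with each other at Pearson r = 0.865 and 0.866 in the control libraries. The Myofib-like-named portion correlated with cluster 4 at 0.924 and 0.927, and the Tgfbi+-named portion at 0.824 and 0.830. These correlations run across genes within a library, whose smaller portions are shallower, and genes are not independent replicates. The second names may rest on the same expression values, so the differences describe the portions and were not tested.

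**Figure D4:**
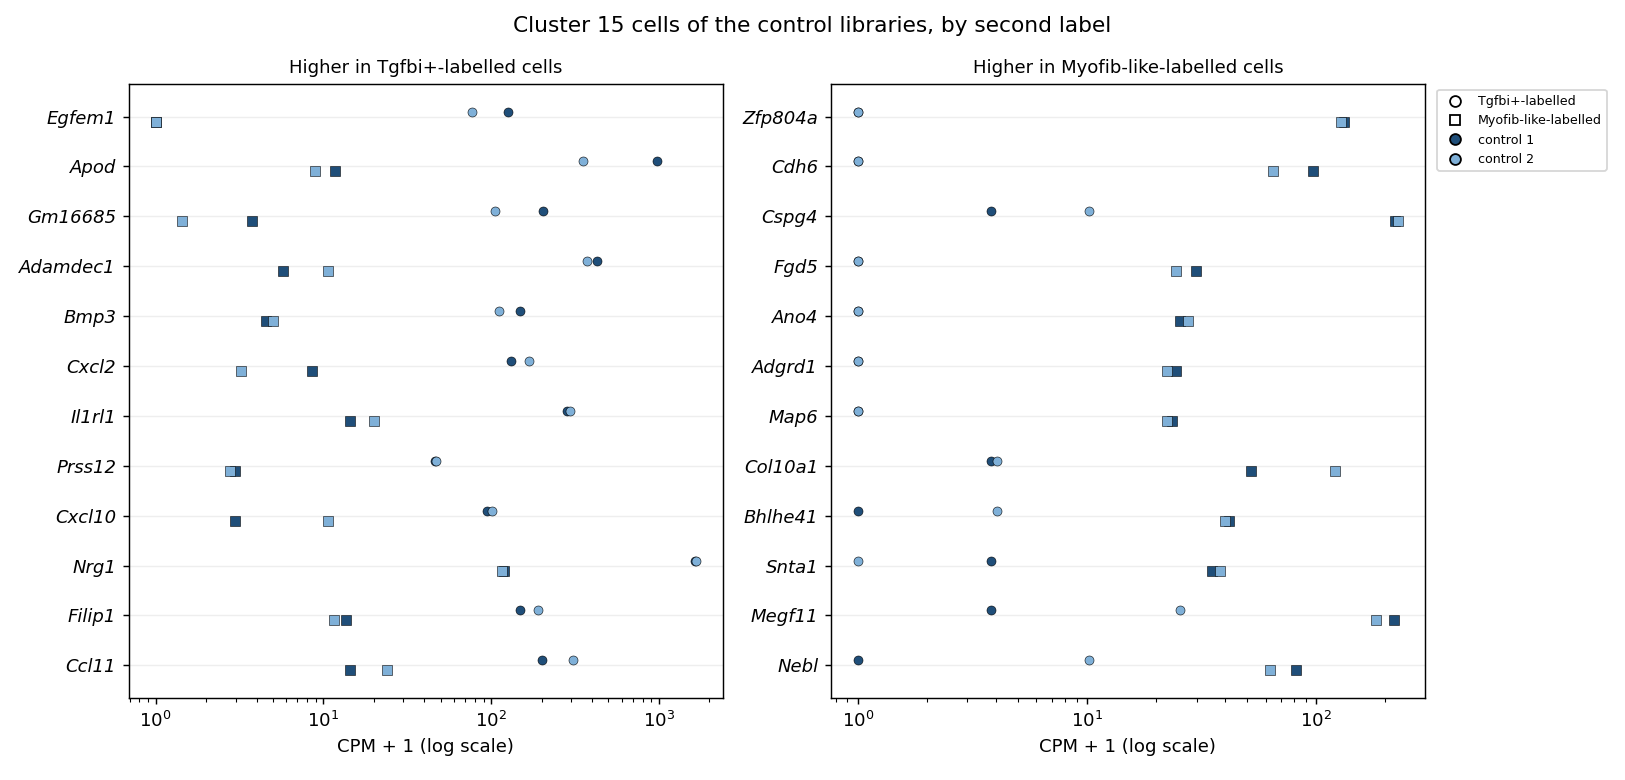
Control cells of cluster 15 by second name, CPM + 1 on a log axis; circles are Tgfbi+-named cells (79 and 67 cells), squares Myofib-like-named cells (541 and 471 cells), 1 symbol per control library, for the 12 genes with the largest ratio each way. Cspg4, Col10a1, Zfp804a and Cdh6 sit at or near 0 in the Tgfbi+-named cells, and Nrg1, Apod and Bmp3 are at least 10-fold higher there.

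The nearest neighbours of cluster 15 were ranked in each library, among mesenchymal clusters with at least 50 cells there. By correlation of log2(CPM + 1) over genes with a mean of at least 10 CPM, knockdown libraries 1 and 2 were most like cluster 16 (Pearson r = 0.937 and 0.893), and cluster 4 reached 0.874 and 0.831. The control libraries were most like clusters 13 and 4, at 0.936 and 0.932 in control 1 and 0.934 and 0.935 in control 2. Cluster 16 held 931 and 404 cells in the knockdown, against 5 and 38 in the controls, so it could not be compared in the controls. Cluster 13 held 48 and 5 cells in the knockdown, so it could not be compared there. Whether the nearest cluster differed between the groups was therefore not tested. In the knockdown, cluster 16 also carried the markers, with 40.9 and 80.9 CPM of Cspg4, 8.102 and 29.6 CPM of Col10a1 and 23.7 and 63.3 CPM of Postn. Its Tgfbi level of 564 and 482 CPM and Nrg1 level of 196 and 164 CPM were below those of knockdown cells in cluster 15.

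Cluster 15 made up 1.32% and 0.761% of mesenchymal cells in the knockdown libraries (exact binomial 95% intervals 1.08 to 1.61% and 0.542 to 1.04%), against 5.84% and 5.17% in the controls (5.43 to 6.27% and 4.78 to 5.60%). The difference of -4.46 percentage points had an exact permutation p of 0.333 (two-sided), the smallest that 2 libraries against 2 allow. As a share of the myofibroblast-like class it made up 16% and 8.16% in the knockdown, against 45.0% and 39.3% in the controls. The genes that define the cluster differ between the groups, so these shares state how cells were assigned and are not read as an abundance.

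Yap1 and Wwtr1, the targets of the knockdown, were lower by less than 2-fold in cluster 15. Yap1 read 37.8 and 50.1 CPM in the knockdown, against 56.5 and 70.02 CPM in the controls. Wwtr1 read 193 and 166 CPM in the knockdown, against 231 and 204 CPM in the controls. Neither gene overlapped between groups. Within Tgfbi+-named cells Yap1 read 48.1 and 57.6 CPM in the knockdown, against 50.9 and 57.99 CPM in the controls, and these overlapped, while Wwtr1 read 209.6 and 186 CPM, against 339 and 278 CPM. The targeted stretch of each transcript is not stated in the labels, so the counts cannot check the knockdown fully. Wnt4, the Wnt ligand named in the study's title, read 41.4 and 61.7 CPM in knockdown cells of cluster 15, against 15.4 and 12.3 CPM in control cells. Without the Tgfbi+-named cells, which leaves few knockdown cells, its log2 ratio turned to -0.84, against 1.82 with them. In cluster 4 it read 35.6 and 57.5 CPM in the knockdown, against 16.9 and 15.6 CPM in the controls.

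Of 8824 genes with a mean of at least 10 CPM over the groups in cluster 15, 318 (3.6%) were at least 2-fold higher in the knockdown with no overlap between libraries, and 346 (3.92%) at least 2-fold lower. These are counts past a fold, not of genes that passed a test. Without knockdown library 1 they were 590 and 612, and with only cells of at most 20% mitochondrial UMIs 803 and 1146. Chemokines and inflammatory regulators were among the higher genes. Cxcl1 and Cxcl2 encode neutrophil chemokines. Cxcl1 read 439 and 624 CPM in the knockdown, against 52.5 and 54.8 CPM in the controls, and Cxcl2 167 and 339 CPM, against 22.2 and 20.7 CPM. Both were lower in knockdown than in control cells of cluster 4, at 1.53 and 1.87 CPM, against 7.68 and 5.298 CPM, for Cxcl2. Ccl11, the eosinophil chemokine eotaxin, read 421 and 466 CPM in the knockdown, against 33.7 and 59.97 CPM in the controls, and Tnfaip3, a brake on NF-kappaB, 204 and 227 CPM, against 37.6 and 33.4 CPM.

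Other genes higher in the knockdown were a protease, a growth factor and a transcription factor. Mmp9, a gelatinase, read 519 and 397 CPM in knockdown cells, against 40.8 and 61.6 CPM in control cells. Cebpb, a transcription factor of inflammatory and acute-phase genes, read 189 and 405 CPM, against 52.8 and 35.98 CPM. Areg, an EGF receptor ligand that AT2 cells also express (137 to 206 CPM), read 61.2 and 269.8 CPM, against 11.4 and 25.3 CPM. Adgrg1, an adhesion G protein-coupled receptor, had the largest ratio (log2 3.66), at 50.4 and 65.5 CPM in the knockdown, against 3.42 and 3.89 CPM in the controls. The other classes had a like difference in Adgrg1, with 97.9 and 107 CPM in the knockdown, against 4.46 and 3.67 CPM. Moxd1, Gm16685, Gm13889 and Retnla completed the 12 with the largest ratio, and Retnla read 90.05 and 15.4 CPM in the knockdown, against 10.6 and 4.21 CPM in the controls, beside 84.95 to 172 CPM in AT2 cells. The direction of Retnla turned (log2 -1.47) among cells of at most 20% mitochondrial UMIs.

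Collagens, a guidance receptor and a Wnt regulator were among the lower genes. Col8a1 read 21.6 and 34.7 CPM in the knockdown, against 229 and 260.0 CPM in the controls. Col11a1, a fibril-nucleating collagen, read 5.403 and 3.85 CPM, against 46.8 and 62.6 CPM. Epha3, an ephrin receptor, read 41.4 and 38.5 CPM, against 208 and 219 CPM, and Adam12, a metalloproteinase of activated mesenchyme, 3.602 and 30.8 CPM, against 75.9 and 67.7 CPM. Nkd2, a Wnt antagonist, read 39.6 and 11.6 CPM in the knockdown, against 93.8 and 100.5 CPM in the controls. Further genes were Zfp804a, Nebl, Vamp5 and Zc3h12c. Scgb3a1, Reg3g and Cbr2 belonged to the 12 largest ratios as well, but are airway epithelial genes whose levels in each library were alike in all cell sets. Reg3g, for example, read 0, 112, 494 and 292 CPM in cluster 15 and 1.06, 139, 540.4 and 295 CPM in the other mesenchymal classes, in knockdown 1, knockdown 2, control 1 and control 2.

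**Figure D5:**
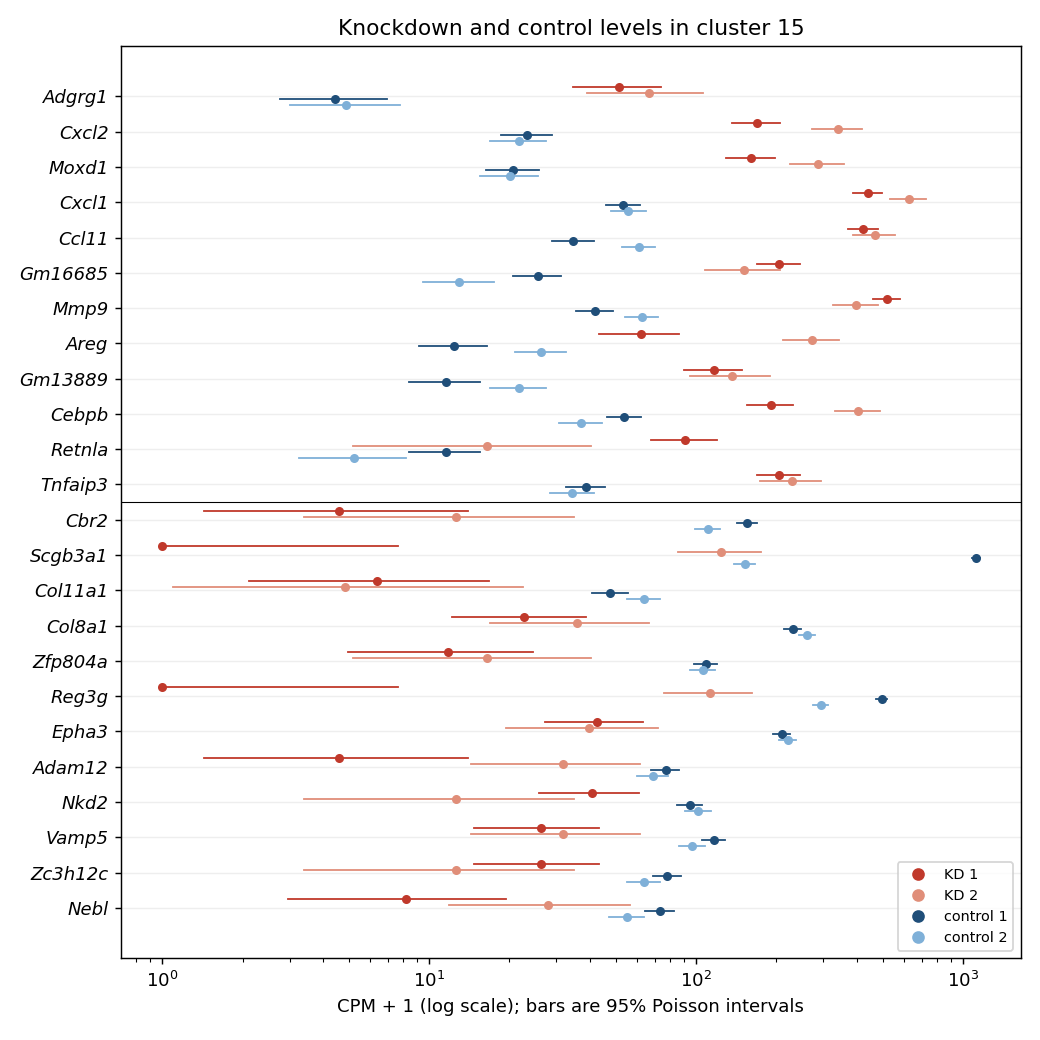
The 12 genes with the largest ratio each way between knockdown and control cells of cluster 15 (CPM + 1, log axis; points are libraries, bars 95% Poisson intervals of the UMI counts). The knockdown libraries, with 99 and 39 cells, have the wider intervals; Scgb3a1 read 0 and 123 CPM in the knockdown libraries, against 1118 and 151 CPM in the controls.

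Several of these differences were small when the Tgfbi+-named cells were taken alone, 63 and 24 knockdown against 79 and 67 control cells. Nrg1, which read higher in knockdown cells of cluster 15 as a whole (1099 and 798 CPM, against 271 and 279 CPM), read 1657 and 1293 CPM in knockdown and 1634 and 1657 CPM in control cells of the Tgfbi+ name. Bmp2 read 241 and 295 CPM in the knockdown, against 308 and 320.5 CPM in the controls, beside 175 and 189 CPM, against 57.04 and 52.8 CPM, in the whole cluster. Tgfbi, Bmp7 and Adamdec1 had log2 ratios of 0.39, 0.13 and -0.08 within the name, against 2.08, 1.62 and 2.31 in the whole cluster. The name may rest on these same expression values, so like levels within it may be built in. They describe the named cells and are not a test. Cspg4 showed the same from the other side: without the Tgfbi+-named cells its log2 ratio of knockdown over control was 0.06, against -1.14 with them. Postn did not become small, with a log2 ratio of -1.97 within the Tgfbi+ name, against -1.69 in the whole cluster. A UMI of Postn was found in only 6.35% and 8.33% of knockdown cells of that name. Without the Tgfbi+-named cells the directions of Cxcl2 and Gm16685 turned, to -1.15 and -1.91. Few knockdown cells remained in that setting, mainly 24 and 7 Myofib-like-named and 12 and 5 Mmp9+-named cells. In the Myofib-like-named knockdown cells alone, 3 counts were worth 23.6 and 67.0 CPM. Within the Tgfbi+ name Cxcl2 was at least 2-fold higher in the knockdown with no overlap (log2 1.46), so it did not become small there.

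Other differences were seen within the Tgfbi+ name as well. Cebpb read 204 and 525 CPM in knockdown cells of that name, against 53.7 and 39.7 CPM in control cells, and Mmp9 532 and 314 CPM, against 98.95 and 177 CPM. Cxcl1 read 643 and 1037 CPM, against 209 and 299 CPM, and Ccl11 626 and 692 CPM, against 201 and 308 CPM. Adgrg1 read 56.6 and 57.6 CPM in the knockdown, against 0 and 3.05 CPM in the controls. The groups did not overlap for these 5 genes. They were picked from genes that already did not overlap in the whole cluster, which includes these cells, so this is not separate evidence. Col8a1 read 8.496 and 6.403 CPM in the knockdown, against 28.3 and 18.3 CPM in the controls, and Col11a1 5.66 and 6.403 CPM, against 33.9 and 18.3 CPM. Both were lower with no overlap, on few knockdown counts. In these cells 388 of 8570 genes (4.53%) were at least 2-fold higher and 518 (6.04%) at least 2-fold lower, with no overlap between libraries.

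The lists were counted in the whole cluster and within the Tgfbi+ name. Over all genes tested, 3.6% were higher and 3.92% lower in the whole cluster, and 4.53% and 6.04% within the name. In the whole cluster 11 of 19 inflammatory genes tested were 2-fold higher in the knockdown and 2 lower, with a median log2 ratio of 1.11 beside -0.05 over all genes. Within the Tgfbi+ name it was 5 higher (Il6, Ccl11, Cxcl1, Cxcl5, Tnfaip3) and 1 lower (Csf1), with a median of 0.20 beside -0.06. Of 20 YAP/TAZ target genes, 2 were higher (Fjx1, Igfbp3) and 2 lower (Ptpn14, Dock5) in the whole cluster, with a median of -0.45. Within the Tgfbi+ name 2 were higher and 6 lower (Amotl2, Crim1, F3, Lats2, Ptpn14, Arhgef17), with a median of -0.53. Of 24 collagens, 2 were higher (Col18a1, Col25a1) and 3 lower (Col7a1, Col8a1, Col11a1), with a median of 0.04. Within the Tgfbi+ name 1 collagen was higher (Col15a1) and 5 lower (Col7a1, Col8a1, Col11a1, Col13a1, Col23a1), with a median of -0.12. Of 16 contractile genes 1 was higher (Myh11) and 1 lower (Des) in the whole cluster, with a median of 0.01. Within the name 0 of 17 were higher and 1 lower (Des), with a median of 0.16. Of 26 growth factor genes of the AT2 niche, 9 were higher in the whole cluster, Fst, Bmp2, Angpt2, Angptl4, Il33, Nrg1, Areg, Ereg and Vegfa. The median was 0.55. Within the name 6 of 24 were higher (Fst, Angpt2, Angptl4, Il6, Lif, Vegfa), with a median of 0.20. Bmp2, Il33, Nrg1, Areg and Ereg were not counted as higher there.

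Epithelial RNA in these cells differed between the groups, in opposite directions for different epithelial markers. The 12 AT2 markers summed to 2510.5 and 1279.6 CPM in knockdown cells of cluster 15, against 794 and 924 CPM in control cells, none of them at 0. Of the 9 tested, 8 were 2-fold higher in the knockdown, beside 3.6% of all genes. Cluster 4 gave 2562 and 1301 CPM in the knockdown, against 963 and 981 CPM in the controls. AT2 and other epithelial cells held 44368 and 36122 CPM in the knockdown, against 21551 and 30277 CPM in the controls. In cluster 15 the 6 general epithelial markers summed to 211 and 227 CPM in the knockdown, against 286 and 263 CPM in the controls. Of 5 tested, 1 was lower (Krt19), beside 3.92% of all genes. The 7 airway secretory markers summed to 3.602 and 374 CPM in the knockdown, against 1790.3 and 548 CPM in the controls. Of 5 tested, 3 were lower (Scgb3a1, Bpifa1, Reg3g), beside 3.92% of all genes. The part of this RNA in the differences above was not tested.

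Shares of cells with a UMI were taken after each cell was thinned to 2000 UMIs, which kept 99 and 39 knockdown and 671 and 586 control cells. A UMI of Tgfbi was found in 69.7% and 58.97% of knockdown cells of cluster 15, against 26.2% and 29.7% of control cells (unthinned, 79.8% and 69.2%, against 35.0% and 38.9%). Cspg4 was found in 9.09% and 15.4% of knockdown cells, against 25.2% and 24.4% of control cells (unthinned, 18.2% and 23.1%, against 40.4% and 41.9%). In AT2 cells, which should lack both, Tgfbi was found in 7.54% and 5.83% of knockdown cells, against 6.43% and 6.93% of control cells, and Cspg4 in at most 0.665%. Median UMIs per AT2 cell were 4862.5 and 5454 in the knockdown, against 3614 and 3812.5 in the controls.

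Proliferation markers overlapped between the groups. A UMI of Mki67 or Top2a was found in 3.03% and 12.8% of thinned knockdown cells of cluster 15, against 4.17% and 5.80% of control cells (unthinned, 9.09% and 20.5%, against 9.82% and 12.3%). The difference of 2.94 percentage points had an exact two-sided permutation p of 1, and knockdown library 2 rested on 5 of 39 cells. Without that library the difference was -1.96 points. Cluster 4 gave 1.97% and 1.83% in the knockdown, against 3.83% and 3.72% in the controls.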

How the data were processed

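RNA and open chromatin were measured in single cells of 4 alveolosphere libraries, 2 per group. The deposited matrix holds UMI counts per gene and cell, and the authors' deposited cell table holds classes, cluster numbers and a second annotation, the percent of mitochondrial UMIs, quality ratios, fractions and scores per cell. The submitters' processing notes name GRCm38 (mm10) as build, and no aligner or cell filter was stated in the sources used here. The deposited table also holds 46 columns of values that were not used. Gene positions came from GENCODE annotation of the same build.

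Cells were taken as the authors classed them, with no further filter. No doublet caller was run; the authors' deposited doublet enrichment score from the chromatin data was used in an alternative. Counts were summed per library and cell set and divided by the sum's total to give CPM. A gene was described against another cell set when its mean was at least 10 CPM, and counted as higher or lower when log2(CPM + 1) differed at least 2-fold in each of the 4 libraries. Between knockdown and control, the group means had to differ at least 2-fold with no overlap of libraries. Fold changes on this scale understate those of low genes. The planned edgeR tests between the groups were not run, because 1 library held fewer than 50 of the cells, and scaling factors alone came from edgeR 4.0.16 (R 4.3.3). Shares were compared by exact permutation over libraries. Python 3.11.15, numpy 2.4.6, pandas 2.3.3 and scipy 1.17.1 were used. The procedure was tested on simulated data.

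Named genes were the 15 with the largest ratio over the other mesenchymal classes and the 10 each way over cluster 4, with at least 20 CPM and the same direction in every library. The 12 each way between knockdown and control (at least 50 CPM in the higher group), the 12 each way between second names and further genes were chosen after their values were seen. The members and the gene lists were chosen with earlier results of these data known. Alternatives changed the pseudocount, the minimum level, scaling, depth, mitochondrial share, doublets and the libraries used. The niche growth factor genes lower in the knockdown are not reported here.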

Additional observations from a re-analysis of the deposited data

Results flagged for a closer look

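Between knockdown and control, 6 named genes had opposite directions in cluster 15 and cluster 4 with no overlap of libraries in either. The difference between the clusters was not tested. Bmp2 had a log2 ratio of knockdown over control of 1.71 in cluster 15 and -0.30 in cluster 4. The cluster 4 direction of Bmp2 rests on 6 and 4 UMIs in the knockdown, against 8 and 10 UMIs in the controls, too few to give a direction. Cxcl1 had 3.29 and -0.76, Cxcl2 3.50 and -1.47, Tnfaip3 2.57 and -0.45, and Prss12 2.27 and -0.53, in the same order. In cluster 4 Prss12 rests on 4 and 1 UMIs in the knockdown, against 5 and 8 UMIs in the controls, also too few, and Cxcl2 on 4 and 5 UMIs, against 25 and 20 UMIs. Cadm1 went the other way, with -0.58 in cluster 15 and 0.56 in cluster 4. Knockdown cells of cluster 15 were mostly of the Tgfbi+ second name, which no cell of cluster 4 held, and the part of that composition in these differences was not tested.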

How the results depend on the processing

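The planned gene-wise tests between knockdown and control, and their alternatives, were not run because knockdown library 2 held 39 cells. All alternatives to the counts of genes were chosen after seeing the data. The difference in share of mesenchymal cells (-4.46 points) was -3.71 as a share of all cells, -30.1 as a share of myofibroblast-like cells, and -4.80 to -4.13 with 1 library left out; with the replicate number as a block it was -4.46 (exact p = 0.5). The difference in Mki67 or Top2a shares was -0.47 points at 1000 UMIs and -1.96 to 7.83 with 1 library left out. Genes lower in the knockdown numbered 209 with a pseudocount of 5. With a mean of at least 2 CPM, 177 genes were lower than in the other classes, and 620 were higher and 845 lower in the knockdown. At most 20% mitochondrial UMIs gave 803 higher and 1146 lower in the knockdown, and thinning to 2000 UMIs 536 and 766. Without the Tgfbi+-named cells 226 genes were lower than in the other classes, 96 higher than in cluster 4 and 526 lower in the knockdown. With 1 library left out, 120 to 153 genes were higher and 112 to 180 lower than in the other classes, 168 to 187 higher and 107 to 120 lower than in cluster 4, and 304 to 590 higher and 364 to 612 lower in the knockdown. Of 975 values for 75 named gene results, 821 kept their direction within 1 SD, 147 moved further and 7 reversed. Reversed knockdown log2 ratios were Retnla at -1.47 (low mitochondrial share), Cxcl2 at -1.15, Gm16685 at -1.91, Wnt4 at -0.84 and Cspg4 at 0.058 (without Tgfbi+-named cells), and Nebl at 0.60 (Tgfbi+-named cells alone). Gm16685 over cluster 4 was -0.47 without Tgfbi+-named cells. Few knockdown cells remained without the Tgfbi+-named ones, which limits the ratios of that setting. The causes were not tested. In the knockdown, 39 cells in 1 library limit every value.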
